A study of Mus musculus with 3 samples.

Results

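The genes described here are 10 members of the pathways that recognise, signal and rejoin DNA double-strand breaks: Prkdc, Xrcc5, Xrcc6, Lig4, Xrcc4, Parp1, Parp2, Atm, Trp53bp1 and H2afx. They were taken by name from a list that was drawn up with earlier results of these data known, and all 10 of the 10 were present among the 22954 genes of each table. They were followed in every cell of 3 droplet-based single-cell libraries of mouse lung, by library and by cell class. Each library came from 1 wild-type (WT) female C57BL6/J mouse, and all 3 mice received 13 Gy to the thorax 5 months before the lungs were taken. The mouse CONV was irradiated at a conventional dose rate, the mouse FLASH at an ultra-high dose rate, and the mouse CONV AsiDNA at the conventional rate together with AsiDNA, given at 100 mg/kg on each of 2 days and at 200 mg/kg on the day of irradiation. AsiDNA is a short double-stranded DNA molecule that imitates a broken DNA end. Unirradiated lungs were not analysed here, so every value below is that of an irradiated lung.

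When both strands of DNA break, the ring formed by Ku70 (Xrcc6) and Ku80 (Xrcc5) threads onto each end and recruits the kinase DNA-PKcs (Prkdc); together they make DNA-PK. XRCC4 (Xrcc4) and DNA ligase IV (Lig4) then seal the ends. PARP1 and PARP2 (Parp1, Parp2) attach chains of ADP-ribose at breaks, the kinase ATM (Atm) phosphorylates the histone variant H2AX (H2afx) around them, and 53BP1 (Trp53bp1) binds the marked chromatin and favours end joining. AsiDNA is known to occupy DNA-PK and PARP, which places these genes in the pathway the drug addresses. DNA-PK and H2AX are controlled largely at the protein level, by phosphorylation, which transcript values do not show.

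The tables held 6372, 6983 and 6267 cells for CONV, CONV AsiDNA and FLASH, of which 19619 in all were kept. Summed adjusted counts per library ran from 23383510 to 26417388, and the median total per cell from 3450 to 3678. Cells were gated into classes by 8 marker genes each, 19115 cells (97.4%) took a class, and 17 classes had at least 30 cells in every library. Of the gated cells, 17.5% also had 3 or more markers of a further class, and the pairs of libraries shared 16, 9 and 17 barcodes. Cells with such further markers were the majority of alveolar type 2-like (AT2-like) cells (244 of 290, 253 of 327 and 263 of 383 in CONV, CONV AsiDNA and FLASH) and of smooth muscle- and pericyte-like cells (32 of 48, 40 of 61 and 27 of 44). Sftpc, a surfactant gene and itself one of the AT2 gate markers, was above 0 in 99.4% to 100% of AT2-like cells and in none of the B-like or T-like cells of any library. Genes that every cell uses were nevertheless listed at 0 in some class sums (mt-Co1 in 10 of 51, Polr2a in 3 of 51), so a member at 0 is described as listed at 0 and not as absent. Each condition was 1 mouse, and a difference between treatments cannot be told apart from a difference between mice.

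In the whole lungs the members were sparse. Parp1 was above 0 in 13.1% of CONV cells, 17.6% of CONV AsiDNA cells and 16.9% of FLASH cells. Lig4 was above 0 in 1.08%, 1.69% and 1.45%, and the other members in 2.45% to 10.6%. Such a share reflects how often a transcript was caught as well as how many cells carry it, so shares are compared within a gene and not between genes.

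**Figure D1:**
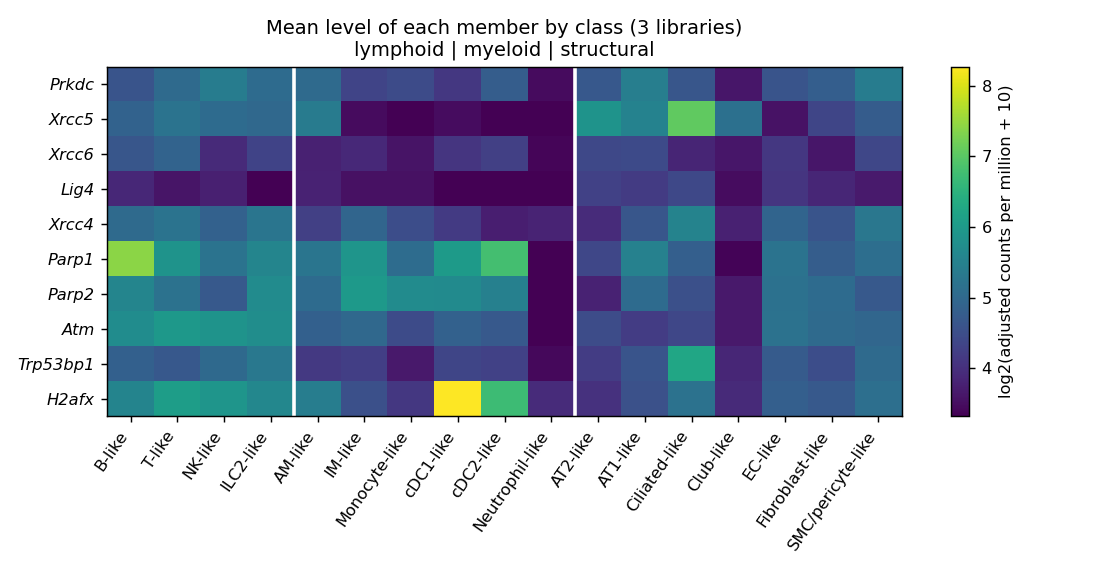
Mean level of each member (rows) in each of 17 gated classes (columns), as log2 of adjusted counts per 1000000 plus 10, averaged over the 3 libraries; white lines part lymphoid, myeloid and structural classes. Xrcc5 and Trp53bp1 peak in ciliated-like cells, Parp1 in B-like cells and H2afx in cDC1-like cells, and the neutrophil-like column is dark for every member.

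The members differed widely between cell classes, and these differences could be tested. Each class was compared with the mean of the other classes on log2(level + 10), where the level is in adjusted counts per 1000000, with the library as a block (limma, Benjamini-Hochberg adjustment over 17461 genes, n = 3 mice). Of 170 pairs of a member and a class, 39 were higher and 36 lower at an adjusted p below 0.05. Over all genes 20.9% of such pairs were called higher and 29.3% lower, so the members were not unusual in how often they differed between classes. The classes in which they were high differed from gene to gene, also between partners of one complex.

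Xrcc5, which encodes Ku80, was by far most abundant in ciliated-like cells, the multiciliated cells of the airway. There it was above 0 in 132 of 299 CONV cells (44.1%), 191 of 422 CONV AsiDNA cells (45.3%) and 124 of 309 FLASH cells (40.1%). Its level was 125, 123 and 121 adjusted counts per 1000000 in the same order, a mean of 123 ± 1.63 (SD, n = 3 mice). The 3 libraries thus lay almost on top of each other, and the lowest of them was above the highest value of any other class. The difference from the other classes was 2.63 on the log2 scale (SE 0.23, limma adjusted p = 6.81e-13), in the same direction in 3 of 3 libraries.

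AT2-like cells came next for Xrcc5, with 22.1%, 21.1% and 21.1% of cells above 0 and a level of 48.6 ± 3.37 (log2 difference 1.37, SE 0.23, limma adjusted p = 3.81e-06). AT1-like cells, the flat cells of the gas exchange surface, followed at 35.5 ± 18.8, and alveolar macrophage-like (AM-like) cells at 31.8 ± 3.36. The range of AT1-like cells, 13.8 to 46.9, overlapped both neighbours, whereas those of AT2-like and AM-like cells did not overlap. Without the cells that had markers of a further class, an AT2-like difference of 1.42 remained (limma adjusted p = 2.53e-07). With each cell thinned to a total of 1000, to even out depth, the share above 0 remained highest in ciliated-like cells, at 12.0%, 12.3% and 12.9%, against 3.79% to 6.79% in AT2-like cells. At the other end, Xrcc5 was listed at 0 in all 3 libraries in monocyte-, neutrophil- and cDC2-like cells. It was above 0 in at most 5 endothelial-like (EC-like) cells and at most 6 interstitial macrophage-like (IM-like) cells of a library.

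The upstream sequences are shown for the Ku pair, which differed in ciliated-like cells, and for Trp53bp1, which like Xrcc5 was highest there. They are the 250 bases before the RefSeq start site on GRCm38.p6, found for 8 of the 10 members (not Prkdc or H2afx), 5′ to 3′ on the strand of the gene. Capitals mark matches, on either strand, to the RFX half-site GTTGCC, the CCAAT box (CCAAT) or the GC box (GGGCGG). RFX factors act with FOXJ1 in the programme of multiciliated cells. The stretches lie at chr1:72307171-72307420 (plus strand) for Xrcc5, chr15:82016119-82016368 (plus strand) for Xrcc6 and chr2:121271408-121271657 (minus strand) for Trp53bp1. The Xrcc6 start used here lies 28534 bases inside the gene as GENCODE M21 annotates it, and 3 of the 12 annotated transcripts start within 100 bases of it.
Xrcc5: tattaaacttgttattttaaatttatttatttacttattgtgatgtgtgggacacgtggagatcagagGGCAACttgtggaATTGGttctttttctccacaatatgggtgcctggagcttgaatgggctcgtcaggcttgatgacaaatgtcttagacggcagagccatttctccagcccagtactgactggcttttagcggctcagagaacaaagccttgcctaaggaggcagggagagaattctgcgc
Xrcc6: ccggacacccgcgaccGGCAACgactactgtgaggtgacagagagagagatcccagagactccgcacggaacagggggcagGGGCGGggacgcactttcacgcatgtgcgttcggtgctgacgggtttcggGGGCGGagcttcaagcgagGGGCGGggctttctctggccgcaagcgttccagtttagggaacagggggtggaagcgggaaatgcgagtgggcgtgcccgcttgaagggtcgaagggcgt
Trp53bp1: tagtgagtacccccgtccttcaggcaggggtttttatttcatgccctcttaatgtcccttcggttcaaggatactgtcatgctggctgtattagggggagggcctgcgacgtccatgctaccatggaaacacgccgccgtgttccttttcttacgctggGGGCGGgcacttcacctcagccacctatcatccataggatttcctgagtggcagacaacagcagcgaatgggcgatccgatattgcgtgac

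The Xrcc5 stretch held 1 RFX half-site, 1 CCAAT box and no GC box. That of Xrcc6 held 1 RFX half-site and 3 GC boxes, and that of Trp53bp1 held 1 GC box and neither of the others. Of 32851 mouse promoters of the same length, 10.4% held the RFX half-site, 33.8% the CCAAT box and 32.7% the GC box. A match describes letters only. Of the other genes with their highest mean in ciliated-like cells, Xrcc4 had 3 GC boxes and no RFX half-site, and Lig4 had 1 RFX half-site and 2 GC boxes before the second of its 2 start sites and no match before the first. Trp53bp1 had no RFX half-site in this window. In the annotation the genes are Xrcc5 at chr1:72307421-72394952 (plus strand), Xrcc6 at chr15:81987835-82040085 (plus strand) and Trp53bp1 at chr2:121193281-121271407 (minus strand). Xrcc6 overlaps Desi1, and Trp53bp1 overlaps Tubgcp4, in each case on the opposite strand.

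Xrcc6, which encodes Ku70, the partner of Ku80 in the ring, did not follow Xrcc5. Only 2.01%, 0.711% and 2.91% of ciliated-like cells had it, at a level of 4.24 ± 2.60 (SD, n = 3). It was highest in T-like cells, at 22.9, 15 and 21.9 adjusted counts per 1000000 (log2 difference 0.92, SE 0.23, limma adjusted p = 0.001). B-like cells followed at 6.49, 12.1 and 26.4, a range that overlapped that of T-like cells. Across the 51 class and library sums, the Pearson correlation between the 2 Ku genes was 0.11, a description over sums that share libraries. Prkdc, the catalytic subunit, went weakly with both, at 0.31 for Xrcc5 and 0.50 for Xrcc6.

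**Figure D2:**
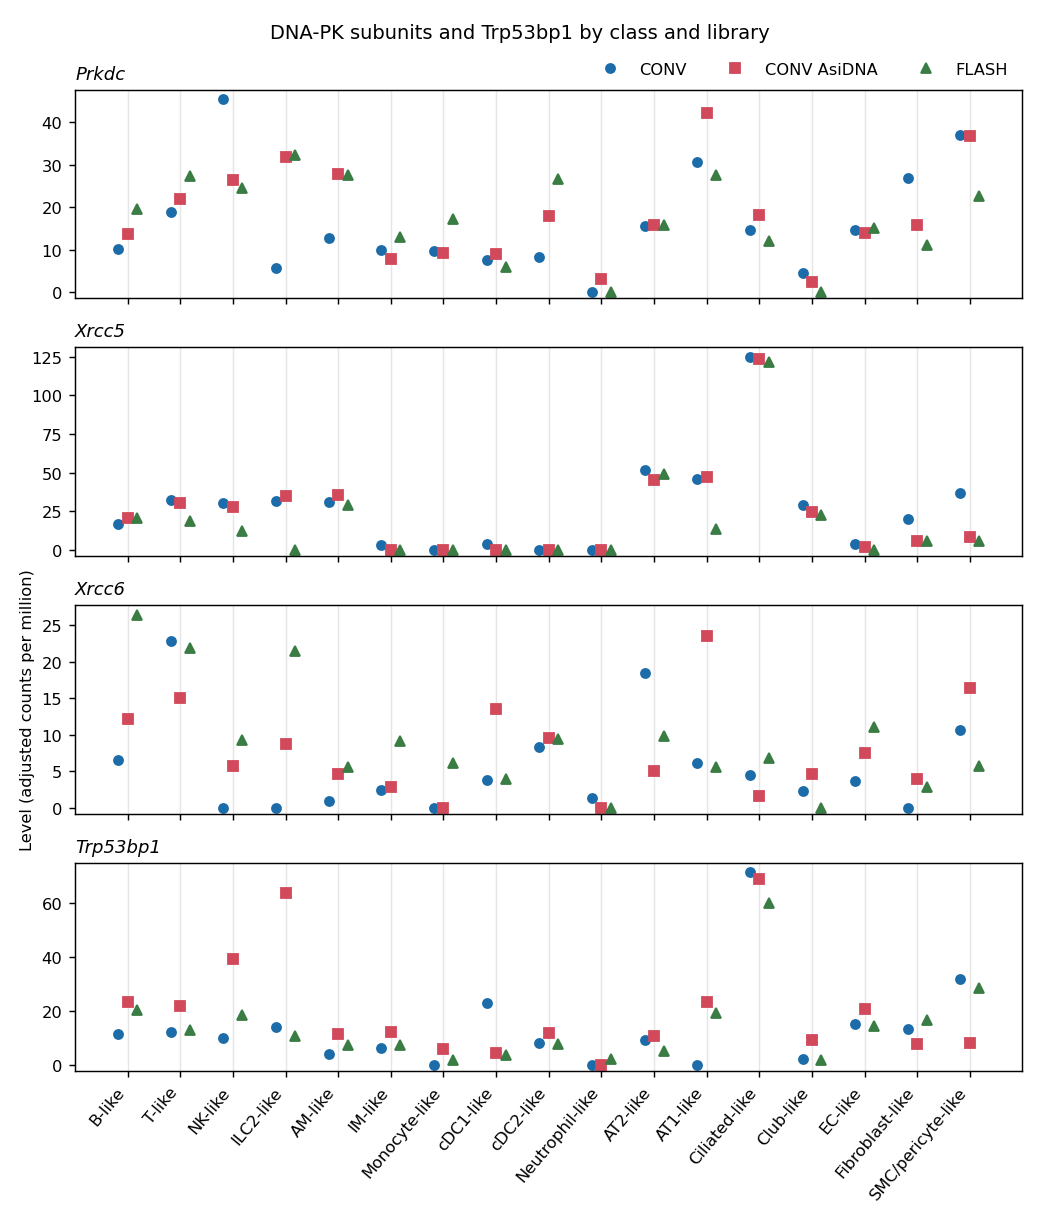
Level of Prkdc, Xrcc5, Xrcc6 and Trp53bp1 (adjusted counts per 1000000, linear axes that differ between panels) in 17 classes; each symbol is 1 library. In ciliated-like cells the 3 Xrcc5 symbols lie at 121 to 125 and the 3 Trp53bp1 symbols at 60 to 71.2, whereas Xrcc6 stays below 7.

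Prkdc, the kinase that Ku recruits, had no single leading class. Its highest means were in AT1-like (33.4 ± 7.74), smooth muscle- and pericyte-like (32.2 ± 8.23) and NK-like cells (32.1 ± 11.5), and the 3 overlapped. Each was higher than the other classes by 0.76 to 0.82 on the log2 scale (limma adjusted p from 0.000949 to 0.00212). The calls in AT1-like and in smooth muscle- and pericyte-like cells were lost without the CONV AsiDNA library (limma adjusted p = 0.0791 and 0.0667). Fewer than 30 smooth muscle- and pericyte-like cells per library lacked markers of a further class, so that call was not checked without possible doublets. In NK-like cells the value of 45.4 came from CONV, where 7 of 69 cells were above 0, and the other libraries were at 26.4 and 24.5. Prkdc lies at chr16:15637866-15842235 (plus strand).

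Lig4, the ligase, was rarely caught. In the 17 classes its highest share was 7.34%, in AT2-like cells of CONV AsiDNA, and it was listed at 0 in 21 of 51 class sums. Its level in ciliated-like cells was 8.81, 12.0 and 12.0, its highest mean (log2 difference 0.72, SE 0.17, limma adjusted p = 0.000332). Its range there overlapped that of AT2-like cells, at 4.97, 16.5 and 6.52 (log2 difference 0.56, limma adjusted p = 0.00594), where CONV AsiDNA was high and the call was lost without that library (difference 0.35, limma adjusted p = 0.229). Xrcc4, the scaffold that holds ligase IV, was also highest in ciliated-like cells, at 33.0, 39.7 and 36.7, with 13.3% to 17.8% of cells above 0 (log2 difference 1.01, SE 0.20, limma adjusted p = 3.44e-05). Smooth muscle- and pericyte-like cells had the next Xrcc4 level, but ranged from 12.3 to 58.2. In AT2-like cells Xrcc4 was at 2.72 to 7.80, lower than in the other classes (log2 difference -0.72, SE 0.20, limma adjusted p = 0.00257), a call lost without FLASH (limma adjusted p = 0.0715). Lig4 lies at chr8:9969049-9977686 and Xrcc4 at chr13:89774027-90089608, both on the minus strand.

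Parp1, which codes for the main ADP-ribose polymerase at breaks, was highest in B-like cells. The gene was detected in 346 of 1336 B-like cells (25.9%) of the CONV lung, 581 of 1599 (36.3%) with AsiDNA added and 468 of 1156 (40.5%) after FLASH. The level was 119, 167 and 192 adjusted counts per 1000000, above every value of every other class (log2 difference 2.28, SE 0.25, limma adjusted p = 1.34e-09). The exact 95% interval of the CONV share, 23.6% to 28.3%, lay below those of CONV AsiDNA (34.0% to 38.7%) and FLASH (37.6% to 43.4%). These intervals cover the sampling of cells only, not the spread between mice. In B-like cells 24.9% of 9100 genes were apart in this way and higher in CONV AsiDNA than in CONV, and 25.3% were apart and higher in FLASH. The conventional dendritic cells of type 2 (cDC2-like) came second, at 95.6, 97.0 and 112 (log2 difference 1.67, SE 0.25, limma adjusted p = 1.03e-06), and did not overlap the classes on either side. T-like cells, at 43.1 to 53.4, were well below B-like cells.

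Parp2, its close relative, had a different order. IM-like cells led at 47.9, 48.1 and 62.4, with 17.4% to 21% of cells above 0 (log2 difference 1.09, SE 0.20, limma adjusted p = 2.71e-05). Monocyte-, ILC2- and cDC1-like cells followed with means of 41.4 to 42.2, in overlapping ranges. B-like cells, the leaders for Parp1, were at 32.4 to 43.0 for Parp2, within the range of these 3 classes or below it. In AT2-like cells both enzymes were low, with Parp2 above 0 in 1.03%, 1.22% and 3.13% of cells (log2 difference -1.22, SE 0.20, limma adjusted p = 2.66e-06). Across the 51 sums the pair had the highest correlation among the members (Pearson r = 0.72). Parp1 lies at chr1:180568924-180601254 and Parp2 at chr14:50807841-50821301, both on the plus strand.

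**Figure D3:**
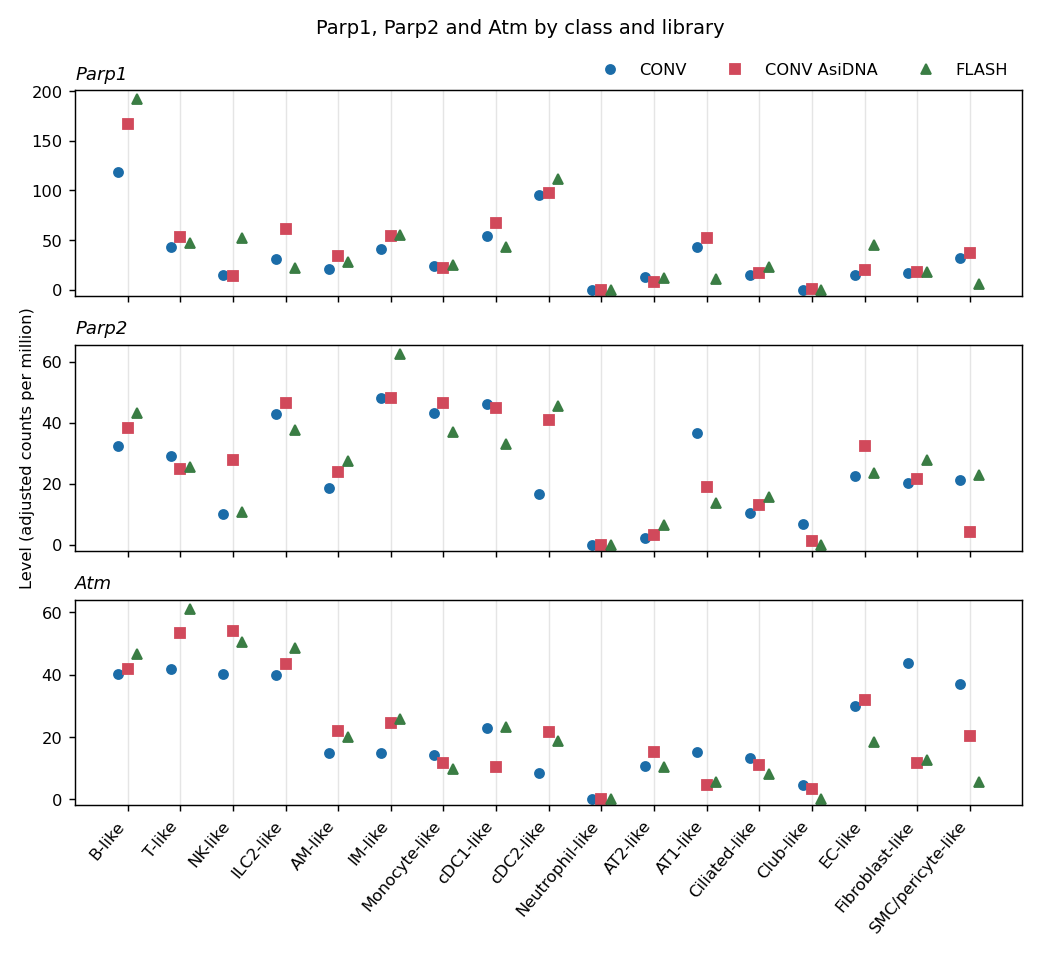
Level of Parp1, Parp2 and Atm (adjusted counts per 1000000, linear axes that differ between panels) in 17 classes; each symbol is 1 library. Parp1 rises to 119 to 192 in B-like cells with CONV lowest, and Atm lies at 39.9 to 61.0 in the 4 lymphoid classes.

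Atm was a lymphoid gene in these lungs. T-like cells were at 41.9, 53.4 and 61.0 adjusted counts per 1000000, with 11.9%, 16.7% and 17.4% of cells above 0 (log2 difference 1.2, SE 0.21, limma adjusted p = 1.36e-05). NK-like cells were at 40.4, 54.0 and 50.6, cells like type 2 innate lymphoid cells (ILC2-like) at 39.9, 43.4 and 48.4, and B-like cells at 40.2, 41.8 and 46.7. All 4 lymphoid classes were called higher, by 0.96 to 1.2, and their ranges overlapped each other. No other class had a mean above 26.6. The highest single value outside the lymphoid classes was that of fibroblast-like cells of CONV, at 43.6 (13 of 67 cells), against 11.8 and 12.5 in the other libraries. Atm lies at chr9:53439149-53536740 (minus strand).

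Trp53bp1 peaked in ciliated-like cells, like Xrcc5 and Xrcc4. Positive cells numbered 88 of 299 (29.4%), 114 of 422 (27.0%) and 70 of 309 (22.7%) in CONV, CONV AsiDNA and FLASH. The level was 71.2, 68.9 and 60 (log2 difference 1.89, SE 0.27, limma adjusted p = 1.38e-07). ILC2-like cells had the next mean, and of these only CONV AsiDNA, at 63.7, reached the range of ciliated-like cells, against 14.2 in CONV and 10.8 in FLASH. With cells thinned to a total of 1000, the shares in ciliated-like cells were 5.02%, 7.82% and 5.83%.

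In ciliated-like cells, break-response genes were called about as often as genes in general. Of 10 members, 4 were higher (Xrcc5, Trp53bp1, Xrcc4 and Lig4) and 0 lower, where 36% of all genes were higher and 21.9% lower. The median member difference was 0.01, close to that of all genes at 0.04. Of 40 other pathway genes tested, 16 were higher and 8 lower (limma, adjusted p below 0.05), also near these shares. Chek2, the checkpoint kinase below ATM, was 3.94 higher on the log2 scale (SE 0.13), and Mdm2, the ubiquitin ligase of p53, was 2.32 higher (SE 0.27). Atr, the kinase of stalled replication, was 1.80 higher, Paxx, a Ku-binding accessory of end joining, 1.70, Ube2n, a ubiquitin-conjugating enzyme, 1.23, and Rif1, an effector of 53BP1, 1.12. Trp53, which encodes p53, fell by 1.81, Parp3 by 1.59 and Dclre1c, the end-processing nuclease Artemis, by 1.12. Xrcc6, Prkdc, Parp1 and Parp2 were not called in these cells. Scgb1a1, a gene of secretory club cells, was above 0 in 3 of 299, 32 of 422 and 68 of 309 ciliated-like cells, and its part in these values was not tested.

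In B-like cells 5 members were higher (Parp1, Atm, Parp2, Xrcc6 and Xrcc4) and 0 lower. Of all genes 16.6% were called higher there and 5265 of 17461 lower. In T-like cells 6 were higher (Atm, H2afx, Xrcc6, Parp1, Xrcc4 and Xrcc5) and 0 lower, where 21.3% of all genes were higher and 4575 of 17461 lower. The median member difference was 0.44 in B-like and 0.64 in T-like cells, and that of all genes -0.09 and -0.05. Cdkn1a, the p53 target p21, lay at the opposite end in both, 4.03 lower in B-like cells (SE 0.41) and 3.52 lower in T-like cells. Trp53 was higher in both, by 0.93 and 1.14, as was Tdp2, which removes topoisomerase from DNA ends, by 0.84 and 1.10.

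In neutrophil-like cells the listed values of all members were low. All 10 were called lower, where 50.6% of all genes were, with a median of -1.31 for the members and -0.31 for all genes. Xrcc5, Lig4, Parp1, Parp2 and Atm were listed at 0 there in all 3 libraries, over 266, 310 and 303 cells. Fitted differences of genes at 0 rest on the value of 10 added before the logarithm and are no measure of size. The same holds for the member median of -1.31, which such genes help to set. In FLASH mt-Co1, too, was listed at 0 in these cells, so the zeros are not read as absence. Neutrophil-like cells had a median of 791 to 853 genes above 0 per cell, against 921 to 1074 in B-like cells of similar total. Among the other pathway genes 26 were lower, but Dclre1c, the Artemis nuclease, was 2.46 higher (SE 0.22), so end-processing genes were not all low there. In club-like cells, the secretory cells of the airway, 7 members were lower where 56% of all genes were, and Xrcc5 alone was higher (log2 difference 0.59, SE 0.23, limma adjusted p = 0.0225). That call was lost in 6 of 13 alternatives, among them without any one library (limma adjusted p from 0.0525 to 0.0974) or without the library block (0.0503). These cells had only 563.5 to 605 genes above 0 at the median, and Polr2a was listed at 0 in all their sums; the part of this in the low members was not tested.

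By compartment, 7 members were higher in lymphoid than in myeloid classes, where 32.7% of all genes were, and 0 were lower, where 21.8% were. The differences were 1.31 (SE 0.13) for Atm and 1.24 (SE 0.14) for Xrcc5, with Trp53bp1 at 0.88, Xrcc4 at 0.87, Prkdc at 0.63, Xrcc6 at 0.56 and Parp1 at 0.56. The size for Xrcc5 rests on the monocyte-, neutrophil- and cDC2-like sums listed at 0 and is no measure, and its AM-like mean of 31.8 lay above that of each lymphoid class (19.4 to 26.9). Atm and Parp1 were likewise listed at 0 in neutrophil-like cells, so the order of these sizes is not read. Among lymphoid classes only B-like cells, at a mean of 159, exceeded all myeloid classes for Parp1. Its cDC2- (101), cDC1- (54.6) and IM-like means (49.8) lay above those of T- (48.0), ILC2- (37.9) and NK-like cells (27.0). For Prkdc, the B-like mean (14.5) lay below those of AM- (22.7) and cDC2-like cells (17.7). In NK-like cells the Xrcc6 mean (4.98) lay below those of cDC2- (9.11) and cDC1-like cells (7.07). The NK-like Xrcc4 mean (19.1) lay below that of IM-like cells (20.8). For these genes the other lymphoid means exceeded every myeloid mean. The median was 0.60 for the members and 0.01 for all genes. Parp2, H2afx and Lig4 were not called, with 95% intervals of -0.16 to 0.35, -0.15 to 0.59 and -0.05 to 0.37. Among the 40 other genes 17 were higher and 8 lower, led by Cdkn1a, which fell by 3.88 from myeloid to lymphoid, and Paxx, higher by 1.62. Against both immune compartments, the structural classes were higher for Xrcc5 (0.79, SE 0.11) and Lig4 (0.41, SE 0.08) and lower for H2afx (-1.0), Parp1 (-0.98), Parp2 (-0.70) and Atm (-0.66). These sizes too include classes listed at 0, for Lig4 the neutrophil-, cDC1-, cDC2- and ILC2-like cells. Nor did all structural classes share the direction, since Xrcc5 had means of 1.79 in EC-like and 10.5 in fibroblast-like cells, below every lymphoid class. For Atm, the EC-like mean of 26.6 lay above that of every myeloid class, of which IM-like cells were highest at 21.8. For H2afx, the ciliated-like (26.3) and smooth muscle- and pericyte-like means (24.9) exceeded those of IM- (13.2), monocyte- (7.34) and neutrophil-like cells (5.30). They lay below those of every lymphoid class and of AM-, cDC1- and cDC2-like cells. Dividing cells held much of the H2afx sum, as given below. They numbered 0, 1 and 3 among EC-like and 18, 54 and 32 among cDC1-like cells. Their part in the H2afx difference was not tested. Of all genes 46.6% were higher and 29.8% lower in the structural comparison.

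H2afx, at chr9:44334694-44336077 (plus strand), was the member that differed most between dividing and other cells. Dividing cells, with at least 3 of 8 mitotic and replication markers above 0, made up 1.32%, 2.13% and 1.95% of the CONV, CONV AsiDNA and FLASH cells. They held 40.2%, 47.0% and 50.2% of the whole H2afx sum. In dividing lymphoid cells H2afx was above 0 in 27 of 32 (84.4%), 32 of 36 (88.9%) and 37 of 42 cells (88.1%), against 7.36%, 10.8% and 8.29% of the other lymphoid cells. Its level there was 1059, 1101 and 937 adjusted counts per 1000000, against 26.0, 36.0 and 28.0. In dividing myeloid cells the level was 561, 707 and 709, against 13.3, 19.8 and 15. No dividing group overlapped its non-dividing counterpart, and the difference was 4.70 on the log2 scale (SE 0.12, limma adjusted p = 3.25e-08).

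**Figure D4:**
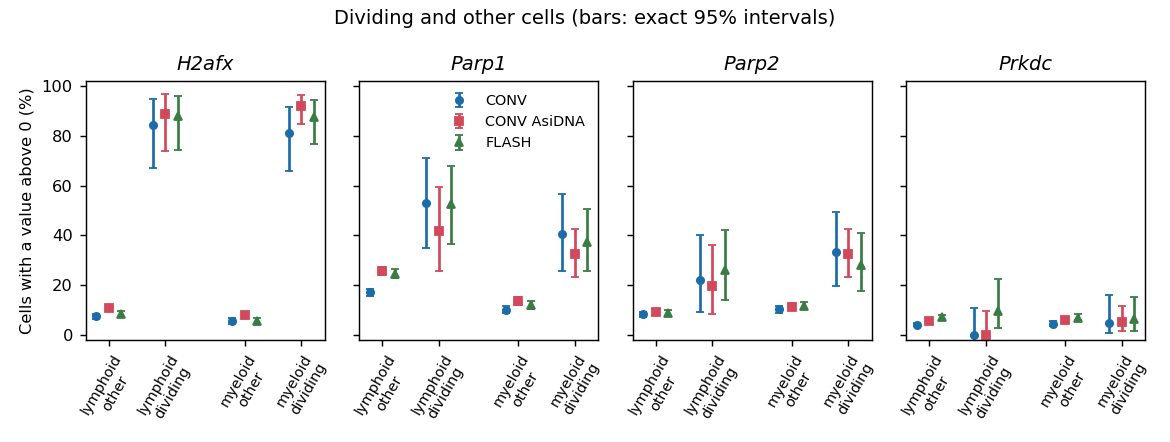
Share of cells with a value above 0 for H2afx, Parp1, Parp2 and Prkdc in dividing and other cells of the lymphoid and myeloid compartments, per library, with exact 95% Clopper-Pearson intervals. H2afx rises from 5.49% to 10.8% of other cells to 81.0% to 91.9% of dividing cells, whereas the Prkdc intervals overlap.

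The H2afx peak in type 1 conventional dendritic cells (cDC1-like) lay in their dividing cells. H2afx stood in this class at 280.3, 337 and 280.3 adjusted counts per 1000000 (log2 difference 3.32, SE 0.29, limma adjusted p = 3.69e-12). Of cDC1-like cells, 18 of 54, 54 of 149 and 32 of 114 were dividing, and 17, 53 and 28 of these had H2afx. In the other cDC1-like cells it was at 23.4, 34.0 and 16.8. With dividing cells left out, the class difference was 0.50 (limma adjusted p = 0.0725), and that of cDC2-like cells went from 1.66 to -0.42 (limma adjusted p = 0.138). In T-like cells H2afx remained higher without them, by 0.70 (limma adjusted p = 0.0125). Within T-like cells alone, an alternative chosen after seeing the data, dividing cells again exceeded the others, at 1033, 983 and 739 against 31.5, 32.5 and 23.4.

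Among the other members, only the PARP genes passed the comparison of dividing with other cells. Of 10 members 3 were higher and 0 lower, where 10% of 14053 genes were higher and 10.8% lower. Parp1 in dividing myeloid cells stood at 92.7, 89.7 and 87.5 against 25.8, 37.0 and 34.6. In lymphoid cells it stood at 143, 100.1 and 148 against 73.6, 108 and 107, so in CONV AsiDNA it was slightly lower in dividing cells (log2 difference -0.10). Its difference was 0.82 (SE 0.21, limma adjusted p = 0.0243). Parp2 differed by 0.83 (SE 0.17, limma adjusted p = 0.0101), with 28.1% to 33.3% of dividing myeloid cells above 0 against 10.2% to 11.7% of the others. Neither call was firm. Parp1 lost it in 3 of 15 alternatives, among them without CONV (limma adjusted p = 0.151) or FLASH (0.125). Parp2 lost it in 6 of 15, among them without any one library (0.0554 to 0.0935). At a total of 1000 per cell, the Parp1 share in lymphoid cells was 6.25%, 5.56% and 9.52% for dividing and 6.53%, 9.71% and 9.84% for other cells. In myeloid cells it was 7.14%, 8.08% and 14.1% for dividing and 2.23%, 3.29% and 3.36% for other cells.

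The DNA-PK genes gave no uniform answer in dividing cells. Xrcc6 was at 200.4, 12.5 and 95.3 in dividing lymphoid cells against 11.4, 12.4 and 21.1 in the others. In myeloid cells it was at 13.9, 19.2 and 6.25 against 1.77, 3.67 and 6.07, so the library with the smallest difference was CONV AsiDNA in one compartment and FLASH in the other (log2 difference over both 1.2, SE 0.42, limma adjusted p = 0.0717). Xrcc5 stood at 64.4, 6.25 and 21.2 in dividing lymphoid cells against 24.7, 25.5 and 18.5, and at 0, 6.41 and 3.12 in dividing myeloid cells against 19.8, 14.4 and 9.45 (log2 difference -0.44, 95% interval -1.21 to 0.34). Prkdc was listed at 0 in all 32 dividing lymphoid cells of CONV and all 36 of CONV AsiDNA, and was above 0 in 4 of 42 of FLASH (log2 difference -0.58, 95% interval -1.21 to 0.04). Genes of homologous recombination, the repair route of replicating cells, were higher in dividing cells: Brca1 by 2.98 (SE 0.20), Bard1 by 2.49 (SE 0.20) and Brca2 by 2.31 (SE 0.24). Of the 40 other genes 16 were higher and 1, Mdm2, was lower, by 0.70.

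Between the libraries, ratios were also taken on level + 10, which understates those of low genes. On that scale no member reached a fold of 2 in the whole lungs or with classes weighted equally. For CONV against CONV AsiDNA 0.784% of 17723 genes passed that size over all cells and 0.429% with equal weights. For CONV against FLASH the shares were 1.18% and 0.581%, and for CONV AsiDNA against FLASH 0.152% and 0.0959%. With equal weights the members had a median log2 ratio of -0.17 between CONV and CONV AsiDNA (all genes -0.0042) and -0.05 for CONV over FLASH (all genes 0.01). It was 0.07 when CONV AsiDNA was set over FLASH (all genes 0.02). With 1 mouse per condition they could not be tested.

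Shares were also compared by their exact 95% intervals, which cover the sampling of cells only. The libraries differed in cell make-up, with monocyte-like cells at 0.910%, 4.47% and 6.27% and NK-like cells at 1.08%, 4.03% and 3.41% of CONV, CONV AsiDNA and FLASH cells. The median mitochondrial share per cell was 0.628%, 0.18% and 1.35%, and the part of these in the differences was not tested. Between CONV and CONV AsiDNA the intervals of 5 of 10 members did not overlap, all higher in CONV AsiDNA: Prkdc, Lig4, Parp1, Trp53bp1 and H2afx. All genes leaned the same way, with 23.1% apart and higher in CONV AsiDNA and 12.1% apart and higher in CONV. Trp53bp1 was above 0 in 4.58% (4.08% to 5.13%) of CONV cells, 7.05% (6.46% to 7.67%) of CONV AsiDNA cells and 4.90% (4.38% to 5.46%) of FLASH cells. H2afx was at 7.53%, 10.6% and 7.98%. Its log2 ratio of CONV over CONV AsiDNA was -0.43 with all cells and -0.26 with dividing cells, which were fewer in CONV, left out. Between CONV and FLASH 4 members were apart: Prkdc, Xrcc6 and Parp1 were higher in FLASH (19.2% of all genes), and Xrcc5 was higher in CONV (16.7% of all genes). Between CONV AsiDNA and FLASH 4 were apart: Xrcc5, Trp53bp1 and H2afx were higher in CONV AsiDNA (16.5% of all genes) and Xrcc6 in FLASH (6.81%).

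Fewer members were apart when each cell was thinned to a total of 1000. Parp1 and H2afx were then higher in CONV AsiDNA than in CONV (10.9% of all genes), Xrcc6 and Parp1 higher in FLASH than in CONV (10.2%) and Xrcc6 higher in FLASH than in CONV AsiDNA (2.8%). The shares of all genes come from a second draw, added after seeing the data. In that draw Parp1, Trp53bp1 and H2afx were apart between CONV and CONV AsiDNA, Parp1 alone between CONV and FLASH, and 0 members higher in FLASH than in CONV AsiDNA. Xrcc6 and Trp53bp1 thus depended on the draw. The thinned Parp1 share was 4.18%, 5.80% and 6.00% in CONV, CONV AsiDNA and FLASH. For Trp53bp1 it was 1.35% (1.08% to 1.66%), 1.82% (1.52% to 2.16%) and 1.42% (1.14% to 1.74%).

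**Figure D5:**
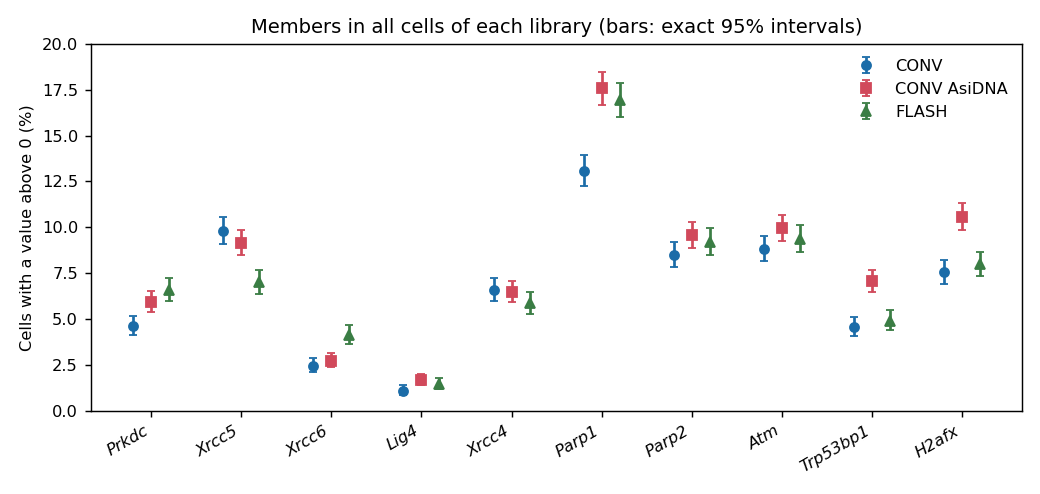
Share of all kept cells with a value above 0 for each member in CONV, CONV AsiDNA and FLASH, with exact 95% Clopper-Pearson intervals that cover the sampling of cells only, without thinning to equal depth. Trp53bp1 (7.05%) and H2afx (10.6%) are highest in CONV AsiDNA, Parp1 is lowest in CONV (13.1%), Xrcc5 is lowest (6.99%) and Xrcc6 highest (4.13%) in FLASH.

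Within classes, CONV AsiDNA had the highest Trp53bp1 level in 12 of 17. Among 5293 genes above 0 in at least 45 of the 51 sums, the median was 6 classes, and 2.93% of them had 12 or more; this gene was singled out after its values were seen. Among T-like cells the positive shares were 3.8%, 6.19% and 4.18%. In B-like cells the shares were 2.92% (2.08% to 3.97%), 6.82% (5.63% to 8.16%) and 5.71% (4.44% to 7.21%), so CONV was lowest and the drug-treated and FLASH mice overlapped. At a total of 1000 per B-like cell they were 1.50%, 1.81% and 1.82%, and all intervals overlapped. In NK-like cells the level was 10.1, 39.1 and 18.4, and in ILC2-like cells 14.2, 63.7 and 10.8, over only 2 to 31 positive cells a library. Ciliated-like cells, the richest in Trp53bp1, did not follow this order in level or unthinned share, since CONV was highest there. At a total of 1000 per cell, given above, their share was instead lowest in CONV and highest in CONV AsiDNA. These thinned shares rest on the first draw alone, so their order is not read.

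The Ku genes differed in which library was highest. Xrcc5 had its highest level in CONV in 10 classes and in FLASH in 1. Of the 5293 genes, 12.7% were highest in CONV in 10 classes or more, and Xrcc5, listed at 0 in 15 of 51 sums, is not among them. Its share in T-like cells was 9.47%, 9.53% and 5.76%, in AT1-like cells its level was 45.8, 46.9 and 13.8, and in FLASH it was listed at 0 in all 55 ILC2-like cells. Xrcc6, listed at 0 in 8 of 51 sums, was highest in FLASH in 8 classes, a number that 16.8% of the 5293 genes reached there, and in T-like cells it was highest in CONV. That order rests on 30 dividing T-like cells of CONV, 11 of them positive; in the other T-like cells it stood at 17.1, 14.9 and 20.7. Its share of positive B-like cells was 1.80% (1.15% to 2.66%), 3.06% (2.28% to 4.03%) and 5.54% (4.29% to 7.02%). Prkdc in B-like cells had the same order, at 2.62%, 3.69% and 5.28%, as did Prkdc in T-like cells, at 5.31%, 7.0% and 8.69%. The CONV and FLASH intervals did not overlap in these 3 cases. In all, 4 of 10 members were apart and higher in FLASH in B-like cells (Prkdc, Xrcc6, Parp1 and Trp53bp1; 25.3% of all genes) and 2 of 10 in T-like cells (Prkdc and Atm; 14.1% of 10055 genes). With B-like cells thinned to 1000, Xrcc6 (0.524% in CONV and 2.6% in FLASH) and Parp1 were still apart, in both draws, where 9.24% of genes were. In T-like cells, thinned in the first draw alone, no member was.

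Of 109 pairs of a member and a class with enough counts, 5 reached a fold of 2 on level + 10 between CONV and CONV AsiDNA (1 higher and 4 lower in CONV). Between CONV and FLASH 11 did (4 higher and 7 lower in CONV), and between CONV AsiDNA and FLASH 6 (5 higher and 1 lower in CONV AsiDNA). The shares of all such pairs of a gene and a class were 8.52%, 9.7% and 3.87%, so the counts of members lay near this background or below it. Xrcc6 in B-like cells, given above, was 1 of those between CONV and FLASH. Prkdc in AM-like cells, at 12.8 in CONV and 27.7 in CONV AsiDNA, was not counted on this scale. In NK-like cells H2afx was at 15.1, 78.1 and 55.2 and Parp1 at 15.1, 13.8 and 52.1, over 69, 281 and 214 cells. Of these cells 0, 3 and 1 were dividing, and their part in the H2afx values was not tested. Parp1 in EC-like cells was at 15.3, 20.2 and 45.5 over 375, 456 and 482 cells.

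The genes whose pattern over the 51 class and library sums was most like each member were found among 17460 genes. For H2afx they were Cdca8, Ezh2 and Pclaf (Pearson r = 0.88, 0.87 and 0.87), of which Cdca8 acts in mitosis and Pclaf in replication. Xrcc5 was closest to Adi1, Foxp4 and Hook1 (0.81 to 0.78), Trp53bp1 to Hdgfl2, Thg1l and Mrps17 (0.84 to 0.79) and Atm to Tra2b, Emg1 and Prkacb (0.84 to 0.84). Parp1 was closest to Pgls, Abhd17a and Tomm20 (0.82 to 0.79), Parp2 to Prpf38b, Bola2 and Igbp1 (0.82 to 0.81), and Xrcc4 to Mrpl9, Ttc1 and Itgb3bp (0.81 to 0.80). For Prkdc they were Pura, Egln1 and Gid4 (0.76 to 0.75), and for Lig4 Kctd3, 2310061I04Rik and Mlycd (0.76 to 0.71). Xrcc6 had no close match, with Helz, Dnajc9 and Snrpd2 at 0.60 to 0.57. These values describe sums that share libraries and depth, and no member was among the nearest genes of another.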

How the data were processed

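Lungs of 1 mouse per condition were dissociated and sequenced with a droplet (10x Genomics) system. For each library the authors deposited natural log values, ln(1 + x) with x whole, of 22954 genes. Cell Ranger 6.0.0 and mm10 are named in the submitters' processing notes, and the paper names Seurat; the sources used here do not name the adjustment that narrowed the totals per cell. The values were converted back to whole numbers (adjusted counts, each within 1e-06), which are not raw counts, so no count model was used, although raw counts had been planned for. Another 12 columns of per-sample values, in a table with gene identifiers that are not those of these libraries, matched no sample and were not used, nor were 3 tables of the authors' own fold changes and p-values.

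Cells with at least 200 genes above 0 and at most 20% mitochondrial counts were kept. A cell took the class, of 21, with the most of 8 markers above 0, at least 3 and more than any other class; no doublet caller was run, and leaving out cells with 3 or more markers of a further class was an alternative. Counts were summed per class and library and scaled to adjusted counts per 1000000 (the level). Classes, compartments and dividing cells (at least 15 per sum) were compared with limma 3.58.1 in R 4.3.3 on log2(level + 10), with the library as a block and genes with a sum of at least 20, adjusted by Benjamini-Hochberg. In simulated data for ciliated-like cells (17461 genes), 85% of 2-fold and 99% of 4-fold changes were recovered with 8 false calls among the unchanged genes. The 3 mice differed in treatment, and the error of each gene was pooled over all sums of a fit. A gene therefore had the same SE in every class, for Xrcc5 0.227 in both ciliated-like and AT1-like cells. These p-values measure that pooled spread over treated mice and not the spread of the class named. Exact Clopper-Pearson intervals at 95% cover the sampling of cells only. Libraries were compared by size, with a fold of 2, and without a test.

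The members, the other 40 genes and the marker lists were chosen with earlier results of these data known. Named genes were the members, other pathway genes past a test (up to 10 per comparison, by size, some of which are not reported here) and the 3 genes most like each member that was above 0 in at least 5% of the cells of some class. Gene positions are from GENCODE M21 (GRCm38) and promoters from RefSeq (GRCm38.p6). The E2F spellings TTTCGCGC (in 0.256% of promoters) and TTTGGCGC (0.417%) were also searched on both strands and matched no member. Alternatives covered the pseudocount, the filter, the gate, possible doublets, dividing cells, each library left out, the block, scaling, thinning to a total of 1000 and means over cells.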

Additional observations from a re-analysis of the deposited data

How the results depend on the processing

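The class calls of the members (75 of 170) ranged from 65 to 76 over other pseudocounts, filters, gates, weightings and with dividing cells left out, and from 52 to 76 with each library left out (52 without CONV AsiDNA). Compartment calls (13 of 20) stayed at 13 or 14. Without the library block the class calls were 69, the compartment calls 13 and the dividing calls 3. No paired analysis between conditions was possible because each condition was 1 mouse; the block is the mouse itself. Calls in dividing cells (3 of 10) were 3 or 4 under the settings that kept all libraries and 1 or 2 with each library left out. Added comparisons, chosen after seeing the data, gave 2 calls within T-like cells, or within T-like and cDC1-like cells together, and 1 within cDC1-like cells, H2afx in each. Of 30 named differences, 19 kept their side of the threshold in every alternative run. H2afx in cDC2-like cells reversed to -0.42 with dividing cells left out. Xrcc6 in dividing cells passed with a pseudocount of 1, a sum of at least 100 or a gate of 2 markers. No member reached a fold of 2 between libraries in any setting. In dividing cells Parp1 lost its call in 3 of 15 alternatives and Parp2 in 6 of 15, among them the losses with a library left out given above. With cells thinned to 1000, shares were higher in CONV AsiDNA than in CONV for 10 members instead of 8 (8 in a second draw, with 58.3% of all genes), and 381 of 440 class and library shares stayed above 0. Lig4 was listed at 0 in 21, Xrcc5 in 15 and Xrcc6 in 8 of 51 sums; the part of depth in this was not tested.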
